A study of Mus musculus with 2 samples.

Results

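The desmosomal cadherins and plakophilins are the genes of the adhesion proteins of the desmosome and of the plaque proteins that bind them. Members were chosen by gene symbol alone, as the rows of the deposited expression table named *Dsg1a*, *Dsg1b*, *Dsg2*, *Dsg3*, *Dsc1*, *Dsc2*, *Dsc3*, *Pkp1*, *Pkp2* and *Pkp3*. All 10 had a row, out of 18498 rows in all. The data were 2 libraries of mouse tongue, 1 of the circumvallate papillae (CvP), which hold the taste buds of the back of the tongue, and 1 of tongue epithelium without papillae (Epi). The animals were C57BL/6J mice of 12 to 30 weeks, with no treatment named for them, and the RNA of 20 or more of them was pooled for each library. In its methods the study gives wild-type males of that age for its RT-PCR, and normal chow for its mice in general. The study used the comparison to look for receptor genes that are higher in the CvP. For the RT-PCR of the study the CvP sample is stated to have included epithelium around the taste buds, and for the sequenced RNA this is not stated. Both samples are whole tissues and not sorted cells, so a lower value may come from fewer cells of a type or from less RNA in each cell, and these cannot be told apart.

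Desmosomes rivet neighbouring epithelial cells together and are densest in tissues under mechanical stress, such as the skin and the surface of the tongue. Desmogleins (*Dsg* genes) and desmocollins (*Dsc* genes) cross the membrane and bind their counterparts on the next cell. Inside the cell their tails hold plakoglobin and the plakophilins (*Pkp* genes), and desmoplakin ties this plaque to the keratin filaments. The isoforms are layered: *Dsg1* and *Dsc1* are best known from the upper, differentiated layers of stratified epithelium, *Dsg3* and *Dsc3* from its lower layers, and *Dsg2*, *Dsc2* and *Pkp2* from simple epithelia and heart.

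The values are RPKM, reads scaled to the length of the exon model and to the mapped reads of the library, as the authors deposited them. With 1 library per tissue there was no replicate, no test was made, and every difference below is between these 2 libraries. In rows of 0.1 kb a single read was worth 0.352 RPKM in the CvP against 0.359 in the Epi, which puts the libraries at about 28373266 and 27896142 mapped reads. Intervals given with the ratios of single genes are 95% exact (Clopper-Pearson) intervals from estimated reads, and those of sums and quotients are normal intervals on the log scale. They cover counting error only, not the difference between mice or library preparations.

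The 10 genes fell into opposite groups. *Dsg2*, *Dsg3* and *Pkp2* were at least 2-fold higher in the CvP, *Dsg1a*, *Dsg1b* and *Dsc1* were at least 2-fold higher in the Epi, and the remaining 4 lay between. All 10 reached 1 RPKM in one library or the other, and over the 12549 rows of the table with such a value 28.3% were at least 2-fold higher in the CvP and 3.76% at least 2-fold higher in the Epi. The 30.0% of members in the first direction was thus close to the share of those rows, while the 30.0% in the second stood beside a far smaller one. Most members are abundant, and 8 of them reached an RPKM of 50. Of these 8, 1 (12.5%) was at least 2-fold higher in the CvP, beside 11.3% of the 1150 rows at that level, and 3 (37.5%) were so in the Epi, beside 11.7% of those rows. The median CvP/Epi ratio was 0.853 over the members and 1.43 over the 12549 rows. Over the 410 rows with a geometric mean RPKM of at least 100, where most members lie, the median was 0.778.

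**Figure D1:**
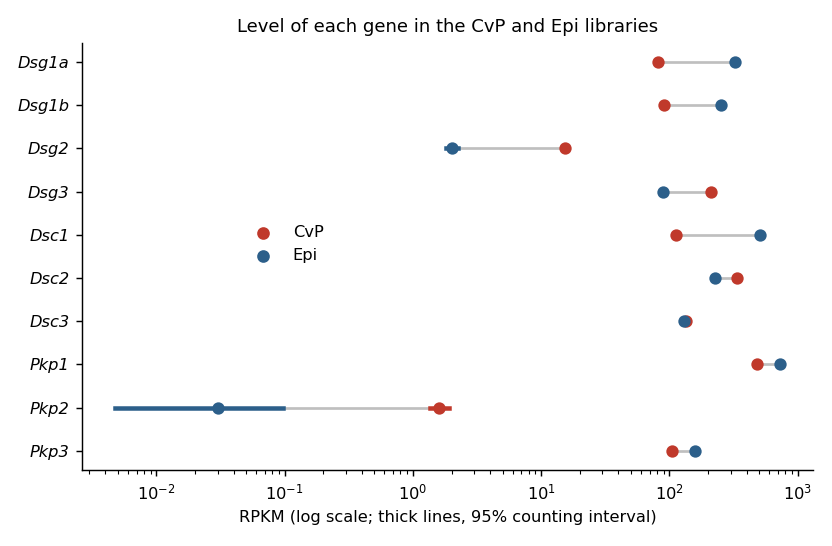
RPKM of each of the 10 genes (log axis) in the CvP library (red) and the Epi library (blue); thick lines are 95% exact Poisson intervals, which are narrower than the points for most genes. *Dsg1a*, *Dsg1b* and *Dsc1* are further right in the Epi, *Dsg3*, *Dsg2* and *Pkp2* in the CvP, and the points of *Dsc3* nearly coincide.

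Among the desmogleins, the 2 *Dsg1* genes and *Dsg3* lay on opposite sides of a ratio of 1. *Dsg1a* and *Dsg1b* are copies of the gene whose human product is attacked by autoantibodies in pemphigus foliaceus. *Dsg1a* had a level of 82.1 RPKM in the CvP against 326 in the Epi, a CvP/Epi ratio of 0.252 (0.247 to 0.257). *Dsg1b* had 91.4 RPKM in the CvP against 254 in the Epi, a ratio of 0.360 (0.352 to 0.368). Both were lower in the CvP, by 3.97-fold and 2.78-fold.

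These 2 genes are close copies, so the division of reads between them is uncertain. In the longest annotated coding transcript of *Dsg1a*, 29.2% of the windows of 75 bases, the read length, were found letter for letter in another *Dsg1* transcript, and 44.6% with up to 2 mismatches. For *Dsg1b* the shares were 39.7% and 64.5%. No such window was shared by any of the other 8 genes. The sum of *Dsg1a* and *Dsg1b* was 174 RPKM in the CvP against 580 in the Epi, a ratio of 0.299 (0.295 to 0.304).

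*Dsg3*, the desmoglein attacked in pemphigus vulgaris, which blisters the mouth, had a level of 210 RPKM in the CvP against 89.0 in the Epi. It was 2.36-fold higher in the CvP (2.30 to 2.41). *Dsg2*, the desmoglein of simple epithelia and heart muscle, had 15.3 RPKM in the CvP against 2.01 in the Epi, or about 2492 and 321 reads. Its ratio of 7.63 (6.79 to 8.59) made it the only member past both limits, more than 10 RPKM in the CvP and more than 3 times the Epi value, by which the study chose candidate genes, which 2.35% of all rows of the deposited table met. *Dsg1a* and *Dsc1* passed the mirrored limits, with the tissues exchanged, as did 0.600% of all rows. In the annotation 330 exon bases of *Dsg2* lie opposite exons of the non-coding gene *Gm16090* on the other strand, and since the counting was not stated to use strand, reads of the pair could not be separated there.

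The desmocollins ranged from strongly lower in the CvP to higher in it. *Dsc1*, the desmocollin of keratinizing layers, had a level of 113 RPKM in the CvP against 512 in the Epi. Its ratio of 0.220 (0.216 to 0.224) was the lowest of the 10 genes, a 4.54-fold lower level in the CvP. *Dsc2*, the most widely distributed desmocollin, had 339 RPKM in the CvP against 225 in the Epi, a ratio of 1.51 (1.48 to 1.53). *Dsc3*, found mainly in basal layers of stratified epithelium, had 136 RPKM in the CvP against 130 in the Epi. Its ratio of 1.05 (1.02 to 1.07) was the nearest to 1 of all members. On the deposited scale the interval of *Dsc3* lay above 1, but its direction depended on the scaling and turned to 0.796 when ratios were divided by the median ratio of expressed rows.

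The plakophilins, armadillo-repeat proteins that bind the cadherin tails and desmoplakin, kept their proportions apart from the scarce *Pkp2*. *Pkp1*, which is most abundant in stratified epithelium, had a level of 480 RPKM in the CvP against 726 in the Epi, a ratio of 0.661 (0.655 to 0.668). *Pkp3*, present in nearly all epithelia that have desmosomes, had 105 RPKM in the CvP against 159 in the Epi, a ratio of 0.659 (0.642 to 0.678). They were 1.51-fold and 1.52-fold lower in the CvP, and their 2 ratios differed by less than the counting error.

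*Pkp2*, the plakophilin of simple epithelia and of the heart, had a level of 1.61 RPKM in the CvP against 0.03 in the Epi, which correspond to about 132 and 2.4 reads. The interval of its ratio of 53.7 ran from 16.1 to 341, since so few Epi reads lay behind it. With 1 RPKM added to both values the ratio was 2.53. Even in the CvP *Pkp2* stood far below *Pkp1* and *Pkp3*.

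Across the whole group the order of RPKM levels changed between the libraries, and the intervals of neighbouring genes did not overlap in either. In the CvP *Pkp1* was highest, followed by *Dsc2* and *Dsg3*, and *Dsg1b* and *Dsg1a* were 7th and 8th. In the Epi *Pkp1* was again highest, followed by *Dsc1*, *Dsg1a* and *Dsg1b*, and *Dsg3* was 8th. *Dsg2* and *Pkp2* were 9th and 10th in both. The lengths listed in the table ran from 0.986 times the longest coding transcript in *Pkp2* to 2.96 times in *Dsc2*, which lowers the RPKM of some genes more than others but leaves the CvP/Epi ratio of each gene as it is. Several neighbours exchanged places when levels were recomputed per annotated transcript length. In the CvP *Dsc2* (1002) then passed *Pkp1* (869), *Pkp3* was 4th, *Dsc1* 5th and *Dsc3* 6th, and *Dsg1a* (206) stood above *Dsg1b* (166). In the Epi *Dsc2* (666) passed *Dsg1b* (461), and *Pkp1* was highest at 1314.

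The make-up of the cadherin families differed between the libraries, while the share of each plakophilin moved by less than 1 percentage point. *Dsg3* made up 52.6% of the summed desmoglein RPKM in the CvP against 13.3% in the Epi. The 2 *Dsg1* genes together made up 43.5% in the CvP against 86.4% in the Epi. *Dsg2* held 3.85% in the CvP against 0.300% in the Epi. The leading desmoglein was thus *Dsg3* in the CvP and *Dsg1a* in the Epi.

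In the desmocollins the leading gene was *Dsc2* in the CvP and *Dsc1* in the Epi. *Dsc2* made up 57.7% of the family's RPKM in the CvP against 26.0% in the Epi. *Dsc1* made up 19.2% in the CvP against 59.0% in the Epi. *Dsc3* changed less, from 15.0% in the Epi to 23.1% in the CvP. *Pkp1* held 81.9% of the plakophilin RPKM in the CvP against 82.1% in the Epi, and *Pkp3* 17.8% and 17.9%.

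**Figure D2:**
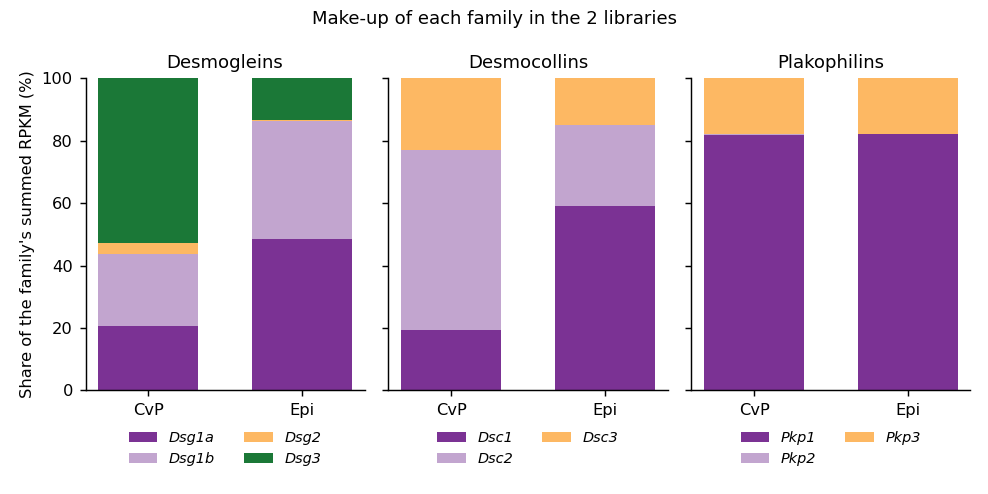
Share of each gene (%) in the summed RPKM of its family in the CvP and the Epi library, as stacked bars from 0 to 100%. *Dsg3* and *Dsc2* are the largest parts in the CvP, *Dsg1a* and *Dsc1* in the Epi, and the plakophilin bars are alike, with *Pkp2* (0.274% in the CvP) too small to see.

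Quotients taken within a library, which no scaling of whole libraries can alter but which depend on the gene lengths used, differed in the same directions. *Dsg3* was 1.21 times the sum of *Dsg1a* and *Dsg1b* in the CvP and 0.153 times that sum in the Epi, a difference of 7.88-fold (7.67 to 8.10). *Dsc2* was 3.01 times *Dsc1* in the CvP and 0.440 times in the Epi, a difference of 6.84-fold (6.68 to 7.01). *Dsc3* was 1.21 times *Dsc1* in the CvP and 0.254 times in the Epi. Per annotated length, *Dsg3* was 1.00 times the *Dsg1* sum in the CvP against 0.124 times in the Epi, and *Dsc3* was 0.969 times *Dsc1* against 0.204 times, so neither exceeded its partner clearly in the CvP. *Pkp1* was 4.59 times *Pkp3* in the CvP and 4.58 times in the Epi, a difference of 1.00-fold (0.974 to 1.03).

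The families' sums were all lower in the CvP on the deposited scale. On it the median ratio of rows with a geometric mean RPKM of at least 100 was 0.778. The desmogleins summed to 399 in the CvP against 671 in the Epi, a ratio of 0.594. The desmocollins summed to 587 and 867, a ratio of 0.678. The plakophilins summed to 587 and 885, a ratio of 0.663. The quotient of plakophilin to desmocollin RPKM was 0.999 in the CvP against 1.02 in the Epi on the listed lengths, and 0.804 against 0.934 per annotated length.

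The 7 cadherin genes lie side by side on chromosome 18 of NCBI37/mm9, in a cluster of 9 genes. It runs from 20119431 to 20763027 by the positions in the deposited table, and the ratios followed the gene order in blocks. The desmocollin genes come first, on the minus strand: *Dsc3* (20119431 to 20160598), *Dsc2* (20189299 to 20218006) and *Dsc1* (20243204 to 20273274). The desmogleins follow on the plus strand, with *Dsg1c*, *Dsg1a* (20469374 to 20501854) and *Dsg1b* (20535336 to 20568242), then *Dsg4*, *Dsg3* (20668805 to 20699811) and *Dsg2* (20716617 to 20763027). The 4 adjoining genes *Dsc1*, *Dsg1c*, *Dsg1a* and *Dsg1b* had ratios from 0.220 to 0.360, across the change of strand. The *Dsg1* genes share sequence and the division of reads between them is uncertain, so their ratios are not separate observations. The genes at the ends, *Dsc3* and *Dsc2* on one side and *Dsg3* and *Dsg2* on the other, had ratios from 1.05 to 7.63 on the deposited scale, of which that of *Dsc3* turned to 0.796 relative to the median ratio of expressed rows. The plakophilin genes are apart from the cluster and from each other, *Pkp1* on chromosome 1 (137767972 to 137815601, minus strand), *Pkp2* on chromosome 16 (16213438 to 16272805, plus strand) and *Pkp3* on chromosome 7 (148264128 to 148276409, plus strand).

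**Figure D3:**
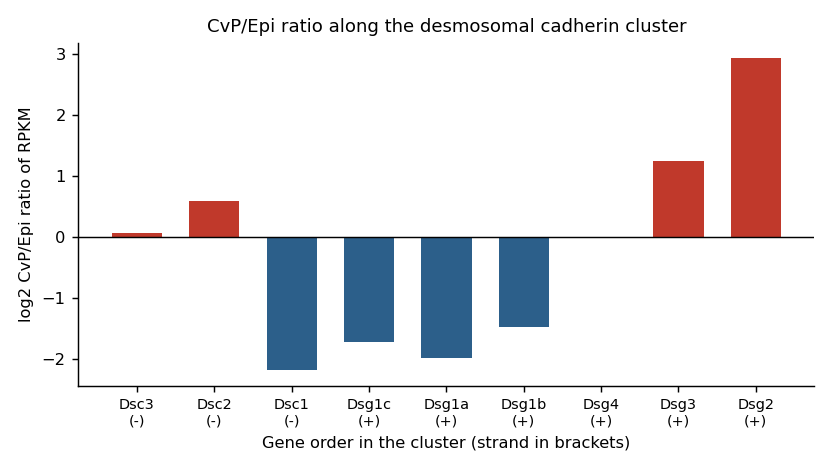
The log2 CvP/Epi ratio of RPKM for the 9 genes of the cadherin cluster, in gene order and not to genomic scale, with red bars for genes higher in the CvP and blue bars for genes lower in it. The 4 adjoining genes from *Dsc1* to *Dsg1b* are below 0 and the outer genes above it. Relative to the median ratio of expressed rows *Dsc3* falls below 0. The *Dsg1* genes share sequence, so their bars are not separate observations. *Dsg4*, at an RPKM of 0.06 in both libraries, has no bar.

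The other genes of the desmosome that reached 1 RPKM had ratios from 0.303 to 1.66, a narrower range than the 0.220 to 7.63 of the cadherins. *Dsp*, which encodes desmoplakin, had a level of 578 RPKM in the CvP against 673 in the Epi, a ratio of 0.859. *Jup*, which encodes plakoglobin, had 249 and 276 RPKM, a ratio of 0.903. *Perp*, a tetraspan membrane protein needed for desmosome assembly in stratified epithelium, had 1273 and 1793 RPKM, a ratio of 0.710. The plakins *Ppl* and *Evpl*, which are also built into the cornified envelope, had ratios of 0.697 and 0.879. *Cdsn*, or corneodesmosin, a secreted component of the desmosomes of cornified cells, had 266 RPKM in the CvP against 763 in the Epi. Its ratio of 0.349 lay close to that of *Dsg1b*.

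Of the cadherin and plakophilin relatives outside the 10 members, *Dsg1c* had a level of 2.14 RPKM in the CvP against 7.07 in the Epi, a ratio of 0.303, and also shares sequence with the *Dsg1* genes. *Pkp4*, found at both desmosomes and adherens junctions, had 11.9 and 7.15 RPKM, a ratio of 1.66. *Dsg4*, the desmoglein of the hair follicle, was at 0.06 in both libraries, or about 6 reads. Of the 9 other desmosomal genes 8 reached 1 RPKM. None of the 8 was at least 2-fold higher in the CvP, 2 were so in the Epi, and their median ratio was 0.784.

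**Figure D4:**
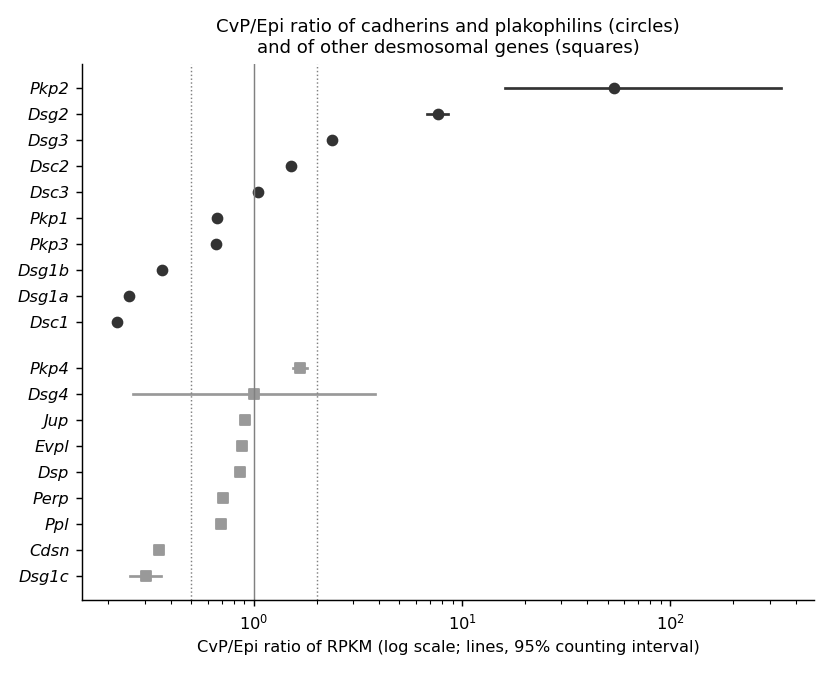
CvP/Epi ratio of RPKM (log axis) for the 10 cadherin and plakophilin genes (black circles) and 9 other desmosomal genes (grey squares), with 95% exact intervals for counting error as lines and dotted lines at 2-fold. The circles run from 0.220 for *Dsc1* to 53.7 for *Pkp2*, while *Jup*, *Evpl*, *Dsp*, *Perp* and *Ppl* lie between 0.697 and 0.903.

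The isoforms best known from simple epithelia and heart (*Dsg2*, *Dsc2* and *Pkp2*) were also summed and set against *Dsg3*, *Dsc3* and *Pkp1* of stratified epithelium. The quotient was 0.431 in the CvP against 0.241 in the Epi, a 1.79-fold difference (1.76 to 1.82). It rested on the abundant genes. *Dsc2*, the most widely distributed desmocollin, had 225 RPKM in the Epi, where the keratins of simple epithelium and taste buds summed to 5.67. The quotient is therefore no measure of simple epithelium. With *Pkp1* left out the difference was 0.992-fold, turning the direction, and with *Dsc2* left out it was 9.51-fold. The quotient thus does not describe the 3 pairs alike.

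The layer markers of the libraries differed alongside the cadherins. Of 7 keratins of the suprabasal layers, 4 were at least 2-fold higher in the Epi and none in the CvP, with a median ratio of 0.367. Their ratios ran from 0.0384 for *Krt76* to 1.21 for *Krt1*, and their summed RPKM was 34466 in the CvP against 87428 in the Epi. Of 6 cornified-layer genes 5 had a row, 2 of them at least 2-fold higher in the Epi and none in the CvP, a median of 0.675, a summed RPKM of 4453 against 12314, and ratios from 0.240 for *Lor*, the cornified-envelope protein loricrin, to 1.15 for *Ivl*, or involucrin. *Dsg1a*, *Dsg1b* and *Dsc1* were lower in the CvP, as were 6 of the 7 suprabasal keratins and 4 of the 5 cornified-layer genes, while *Krt1* and *Ivl* were above 1. The part that the make-up of layers has in the member ratios was not tested.

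The basal-layer list was divided. Of its 7 genes 2 were at least 2-fold higher in the CvP against 1 in the Epi, with a median of 1.57, and its summed RPKM was 2616 in the CvP against 3371 in the Epi. The ratios ran from 0.259 for the keratin *Krt14* to 2.37 for the integrin *Itga6*, and *Dsg3*, at 2.36, was close to the latter. Of 5 proliferation genes, all above 1, 2 were at least 2-fold higher in the CvP, from *Pcna* at 1.36 to *Top2a* at 2.62, and their sum was 60.0 in the CvP against 35.8 in the Epi. Both lists stand beside the 12549 rows that reached 1 RPKM. Of those rows 78.1% had a ratio above 1 and 28.3% were at least 2-fold higher in the CvP. Their median ratio of 1.43 is above that of *Pcna*.

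**Figure D5:**
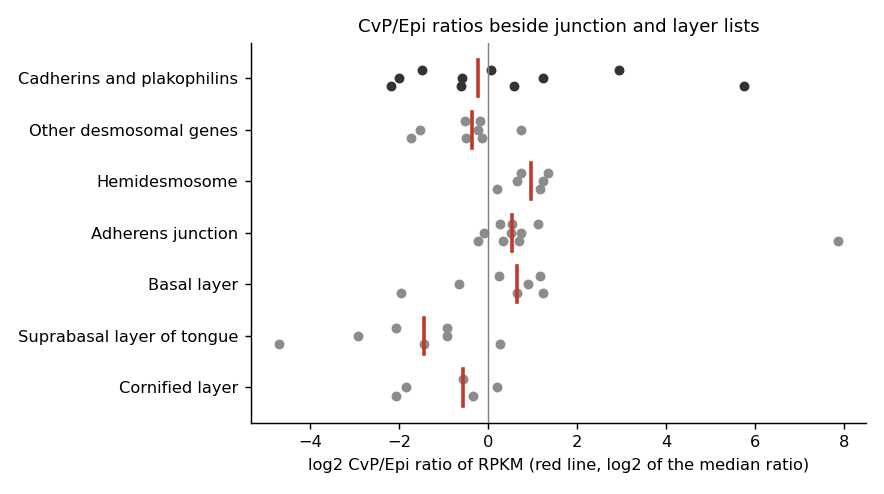
The log2 CvP/Epi ratio of RPKM of each gene (points) that reached 1 RPKM in one library or the other, for the cadherins and plakophilins (black) and 6 lists of junction and layer genes (grey); the red line is the log2 of the list's median ratio. The cadherins and plakophilins spread from -2.18 to 5.75, and the medians lie below 0 for the suprabasal and cornified lists and above 0 for the hemidesmosome, adherens junction and basal lists.

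The markers of taste cells and of simple epithelium were far higher in the CvP than in the Epi. All 5 keratins of simple epithelium and taste buds were at least 2-fold higher there, with *Krt7* at a ratio of 34.1 and *Krt20* listed at 0 in the Epi, and their summed RPKM was 627 in the CvP against 5.67 in the Epi. All 7 taste-cell genes were likewise higher in the CvP, from *Entpd2* at 12.1 to *Pkd2l1* and *Kcnq1*, which were listed at 0 in the Epi, and their sum was 368 against 5.09. *Dsg2* and *Pkp2* were higher in the same library as these lists, but so were *Dsg3*, *Dsc2* and, on the deposited scale, *Dsc3*. A ratio above 1 was shared by 78.1% of the 12549 rows that reached 1 RPKM. The ratio of *Dsg2*, 7.63, was below those of *Krt7* and *Entpd2*, the lowest of their lists, and about 2.4 Epi reads lay behind that of *Pkp2*. Whether *Dsg2* and *Pkp2* are expressed in those cells was not tested.

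Since *Dsg2*, *Dsc2* and *Pkp2* are also the desmosomal genes of heart muscle, heart-type markers were read as well. *Myh6*, the main myosin of mouse heart, and *Myh7*, which slow skeletal fibres also use, were at or below 0.07 RPKM in both libraries. *Tnnt2* was at 3.31 in the CvP against 6.28 in the Epi, a ratio of 0.527, and the 4 heart-type genes summed to 3.48 against 7.14. Skeletal muscle genes were higher in the Epi for 5 of the 5 with an RPKM of at least 1, from *Myh4* at 0.0461 to *Tnnt3* at 0.0761, and the list of 6 summed to 2.73 in the CvP against 40.9 in the Epi.

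The remaining cell-type lists also differed. Salivary gland genes were divided, 2 of 7 at least 2-fold higher in the CvP against 5 in the Epi, from *Dcpp1*, listed at 0 in the CvP, to *Pigr* at 22.2, and the list summed to 22.4 in the CvP against 437 in the Epi. Immune genes were higher in the CvP for 4 of the 4 with an RPKM of at least 1, from *Cd68* at 2.43 to *Lyz2* at 306, and the 5 summed to 150 against 5.54. Of 5 fibroblast genes only *Dcn* reached 1, with a ratio of 0.204 and a list sum of 26.2 against 128, while the collagens *Col1a1*, *Col1a2* and *Col3a1* were at or below 0.25. Of 4 endothelial genes only *Vwf* reached 1, at a ratio of 49.4 and a list sum of 4.79 against 0.29, and none of 4 nerve and glia genes did, their sum being 1.31 against 0.38. The part of these cells in the member ratios was not tested.

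Genes of the other epithelial junctions were read beside the whole table, in which 78.1% of the 12549 rows had a ratio above 1. For the adherens junction 8 of 10 did so and for the hemidesmosome 6 of 6. In the adherens junction, which is linked to actin and built on classical cadherins, 2 were at least 2-fold higher in the CvP and none in the Epi, with a median of 1.45, near the 1.43 of those rows. *Pvrl4*, or nectin-4, was lowest at 0.858, and *Cdh2*, or N-cadherin, was highest, at 2.34 RPKM in the CvP against 0.01 in the Epi, where about 1 read lay behind it. All 6 genes of the hemidesmosome, which fixes basal cells to the basement membrane, had ratios above 1 on the deposited scale, from *Dst* at 1.15, which is below the median ratio of 1.31, to the tetraspanin *Cd151* at 2.52, with a median of 1.97.

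Genes that act on desmosomal cadherins or at the plaque were found in both directions. Of 9 proteases and inhibitors 2 were at least 2-fold higher in the CvP against 1 in the Epi, with a median of 0.903. *Ctsl*, the lysosomal protease cathepsin L, had a ratio of 3.19 and *Klk5*, a kallikrein that cleaves desmosomal proteins during shedding, one of 0.146. Of 6 regulators at the plaque 2 were at least 2-fold higher in the CvP and none in the Epi, from the transglutaminase *Tgm1* at 0.721 to *Ect2* at 2.45, with a median of 1.60. Of 10 transcription factors of stratified epithelium 9 reached 1 RPKM, and 2 of these were at least 2-fold higher in the CvP and none in the Epi. They ran from *Pitx1* at 0.568 to *Sox2*, a factor of basal and taste progenitor cells, at 4.29, with a median of 0.777.

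All these ratios are on the deposited scale, on which the libraries were not centred on each other. The median ratio was 1.31 over the rows with an RPKM of at least 1 in both libraries but 0.778 over the rows with a geometric mean RPKM of at least 100, a range that holds 8 of the 10 members. Relative to the first median *Dsg3* stood at 1.80, short of 2-fold, and *Dsg1a*, *Dsg1b* and *Dsc1* at 0.192, 0.274 and 0.168. Relative to the second *Dsg3* stood at 3.03 and the same 3 genes at 0.324, 0.463 and 0.283. *Pkp1* and *Pkp3* stood at 0.504 and 0.502 relative to the first median, and at 0.850 and 0.848 relative to the second.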

How the data were processed

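Per the labels and the methods of the study, poly(A) RNA was made into libraries with a TruSeq kit and sequenced as single-end reads of 75 bp. The authors mapped the reads with Bowtie 0.12.7 to NCBI37/mm9 and deposited 1 table with the RPKM of each gene in both tissues from ERANGE, a gene length in kb and a CvP/Epi ratio. The options of ERANGE, its treatment of reads with several matches and any use of strand are not given in the sources used here. The deposited ratio column is the authors' own comparison and was not used.

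Depth was read from the steps between RPKM values in rows of 0.1 kb. Reads per gene were estimated from that depth and a length, the listed one or that of the longest GENCODE M1 coding transcript, whichever was shorter, so they are approximate and need not be whole. Ratios were given 95% Clopper-Pearson intervals, RPKM values exact Poisson intervals, and sums and quotients normal intervals on the log scale. With 1 library per tissue no p-value was calculated. A fold of 2 was counted without a pseudocount among rows that reached 1 RPKM in one library or the other.

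The members, the 19 gene lists and the alternatives were chosen with earlier results of these data known. Values are given for every member and other desmosomal gene and, in each further list, for the genes of highest and lowest ratio with an RPKM of at least 1. *Myh6*, *Myh7*, *Col1a1*, *Col1a2* and *Col3a1*, all below 1 RPKM, were named outside that rule. No gene was named for a pattern like that of a member, since 2 libraries give only 1 ratio. *Plec1* was matched as *Plec* and *Bpifa2* through a synonym, and *Flg* had no row. The alternatives were other pseudocounts, scalings, folds, filters and lengths, those on annotated length, on the median of highly expressed rows and on added relatives being chosen after seeing the data. Depth estimation and intervals were tested on simulated data. Calculations used numpy 2.4.6, scipy 1.17.1 and pandas 2.3.3 under Python 3.11.15, with matplotlib 3.10.9 for figures.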

Additional observations from a re-analysis of the deposited data

How the results depend on the processing

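Over 8 pseudocounts and scalings for each of the 10 members, 78 of 80 ratios kept their direction. An equal pseudocount cannot move a ratio across 1, and the scalings divided ratios by 0.778 to 1.32. Only *Dsc3* lay near enough to 1 to turn, so the count is no test of the other members. The 2 ratios that turned were both of *Dsc3*, at 0.796 relative to the median ratio of expressed rows and 0.793 relative to their trimmed mean. The number of members at least 2-fold higher in the CvP was 3. It was 2 under those same scalings, where *Dsg3* fell to 1.80 and 1.79. Among rows of at least 5 RPKM, which leaves out *Pkp2*, it was also 2. It was 2 at a fold of 3 and 4 at a fold of 1.5. Those folds were passed by 16.0% and 46.1% of the 12549 rows that reached 1 RPKM. The number at least 2-fold higher in the Epi was 3 under every scaling and pseudocount. It was 5 at a fold of 1.5, with *Pkp1* and *Pkp3* added, and 2 at a fold of 3. Of the same 12549 rows 7.24% and 1.96% passed those folds in that direction. With the study's ratio lowered from 3 to 2, 2 members met its criteria. The shares of rows at that ratio, among rows of at least 5 RPKM and under the scalings and pseudocounts were not counted. The quotient of the *Dsg2*, *Dsc2* and *Pkp2* sum to the *Dsg3*, *Dsc3* and *Pkp1* sum differed 1.79-fold between the CvP and the Epi. That difference was 1.73 without *Dsg2*, 9.51 without *Dsc2* and 2.18 without *Dsg3*. It was 1.85 without *Dsc3*, 0.992 without *Pkp1* and 1.76 per annotated length. *Pkp2* ranged from 2.53 to 69.0, and depth limits it. Within-family shares kept their direction per annotated length and with *Dsg1c*, *Dsg4* and *Pkp4* added. With only 1 pooled library per tissue, no paired analysis was possible and no library could be left out.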

Other observations

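The gene ontology column of the deposited table assigns 9 of the 10 members to the desmosome, *Pkp2* being the exception. It assigns 10 further rows to it, of which 8 had a level of at least 1 in either library, 1 of them at least 2-fold higher in the CvP against 2 in the Epi, with a median ratio of 0.997. Besides genes described above, these rows include *B4galt1*, a galactosyltransferase, at 13.7 in the CvP against 6.00 in the Epi, *Pnn*, or pinin, at 32.4 and 20.0, and *Jam3* at 0.19 and 0.11. These 3 genes lay outside the rule for named genes and were chosen after their values were seen.

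The rows that follow *Dsg2* on chromosome 18, also named after their values were seen, were *Ttr*, or transthyretin, with an RPKM of 0.03 in both libraries, and *B4galt6*, at 3.84 in the CvP against 0.08 in the Epi.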
